A study of Homo sapiens with 24 samples.

Results

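IMR-32 is an established human neuroblastoma cell line. The cultures described here are a polyclonal IMR-32 culture carrying FOXP1 and a polyclonal IMR-32 culture carrying GFP as its control, and their samples were chosen by the labelled cell line and transgene. They comprise 4 FOXP1 arrays and 4 GFP arrays, taken 0, 12, 24 and 72 h after induction, and make up 8 of the 24 arrays of the series. The remaining arrays hold the same design in CHP-212 and SK-N-BE(2), and the study asked how FOXP1 alters the growth and the expressed genes of such cells. Both transgenes were delivered by the retroviral RevTet-On system, in which doxycycline switches on the promoter, and both cultures were induced. According to the paper, GFP cells served as controls because that promoter leaks. Cy3-labelled RNA of each sample was hybridised to an oligonucleotide array with 43291 probes besides the control spots. Each group of 4 arrays follows a single culture over time, so the p-values below measure only the spread between those arrays. With a single culture for each transgene, an effect of FOXP1 and any other difference between the FOXP1 and the GFP culture cannot be told apart.

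FOXP1 is a transcription factor of the forkhead family that binds DNA as a dimer and acts mostly as a repressor. Neuroblastoma arises from the sympathoadrenal cells of the neural crest, which become sympathetic neurons or the chromaffin cells of the adrenal medulla and make noradrenaline from tyrosine. Enzymes and transporters of that pathway, the receptor tyrosine kinase RET and the HOX genes, which mark position along the body axis, are therefore among the genes followed in differentiation of these cells.

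Levels are given as log2 of the processed signal relative to the 75th percentile of the same array, so that a level of 0 is that percentile and a difference of 1 is a factor of 2. The 75th percentile itself ran from 826 to 2142 over the 8 arrays. A probe is called well above background where the scanner software flagged its signal as such, which held for 72.8 to 82.3% of the probes of an array, and 0 spots were saturated. Probes entered the tests when 4 or more of the 8 arrays carried this flag. Across 33354 probes, the mean levels of the FOXP1 and GFP cultures of IMR-32 had a Pearson correlation of 0.961, against 0.861 to 0.867 with the cultures of CHP-212 and 0.915 to 0.921 with those of SK-N-BE(2). Each IMR-32 culture was thus closest to the other IMR-32 culture, as labelled. The FOXP1 and GFP cultures of CHP-212 were closer to each other (0.986). Within a culture of IMR-32, pairs of arrays had correlations of 0.978 to 0.993, and pairs of a FOXP1 and a GFP array 0.942 to 0.959. These correlations run over probes, which are not independent replicates. Of the sympathoadrenal markers, DBH, TH, RET and TFAP2B were well above background on all 4 arrays of each culture.

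The FOXP1 probe checks the transgene label. Its level was 1.05, 1.19, 1.39 and 1.18 on the GFP arrays of 0, 12, 24 and 72 h and 2.60, 2.76, 2.66 and 2.38 on the FOXP1 arrays. All 4 FOXP1 arrays lay above all 4 GFP arrays, at 0 h as much as later. The log2 difference was 1.40 (standard error 0.15, adjusted p = 0.00011, limma), or 2.64-fold. In CHP-212 the difference of this probe was 1.98, and the contrast of both lines was -0.58 (adjusted p = 0.068), which did not pass. In SK-N-BE(2) the probe differed by -0.20 (adjusted p = 0.91) and was not called, so the FOXP1 label of that line has no support from it.

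**Figure D1:**
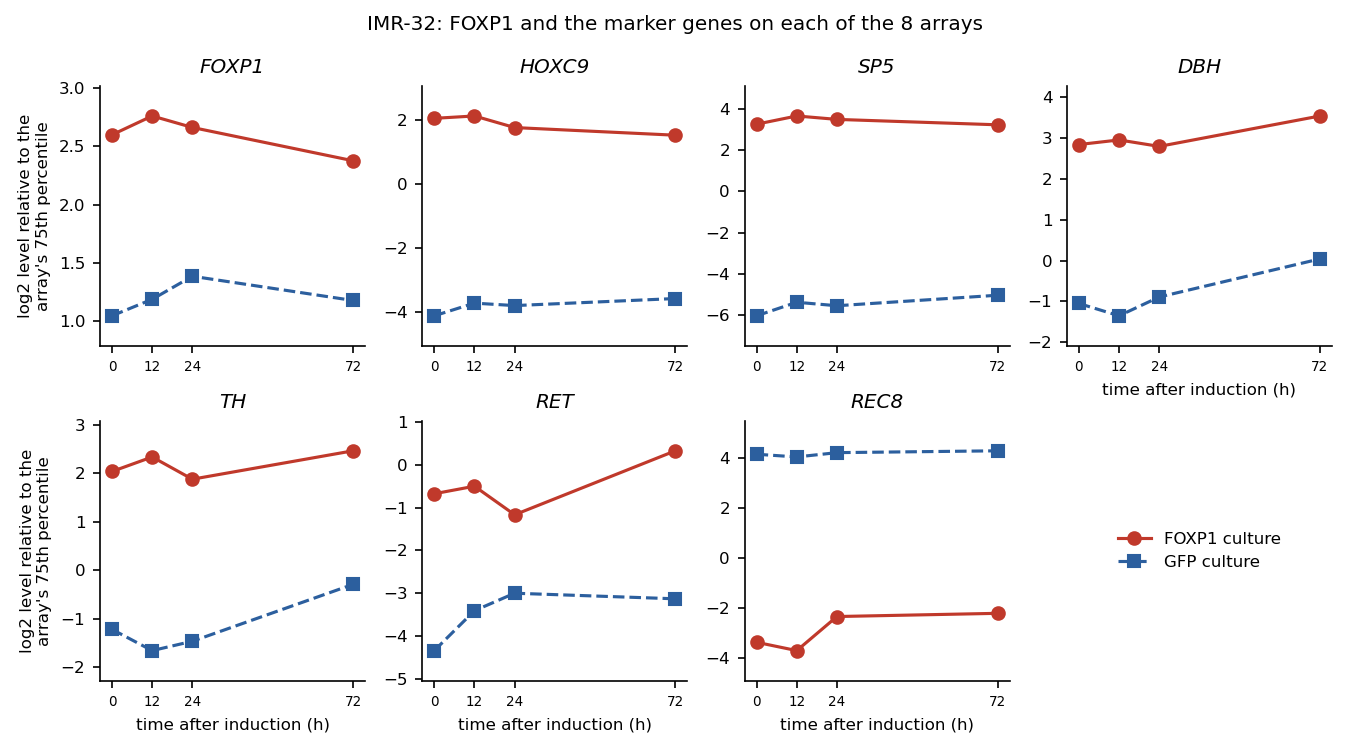
Level of FOXP1 and of 6 marker genes on each of the 8 IMR-32 arrays, as log2 of the processed signal relative to the array's 75th percentile, against the hours after induction. Circles and solid lines are the FOXP1 culture and squares with dashed lines the GFP culture. In each panel the 4 FOXP1 arrays lie on one side of the 4 GFP arrays, and the cultures are already apart at 0 h.

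The genes that differed between FOXP1 and GFP cells include genes of sympathetic and neuronal identity, of body-axis position, of Wnt signalling, of cell adhesion and of meiosis, none of which was tested as a group. The FOXP1 culture had far higher levels of the catecholamine enzymes TH and DBH, of RET, of HOXC9 and of the Wnt target SP5. Most protocadherins tested were higher too, while the meiotic cohesin subunit REC8 was far lower. More genes of Wnt signalling, and more of the neuronal cytoskeleton and synapse, were called lower than higher. Transmitter receptors, ion channels and adhesion molecules were called in both directions, with fewer lower than higher after the normexp correction described below. Calls required an adjusted p under 0.05 (limma, two-sided, Benjamini-Hochberg over all probes tested) together with a 2-fold difference or more. Of 33806 probes tested, 4122 were called (12.2%). Of these, 2142 were higher (6.34% of those tested) and 1980 lower (5.86%) in FOXP1 cells, and the median difference of all probes was -0.01. At an adjusted p under 0.05 and any fold change, 7506 probes passed. The levels of FOXP1 and GFP arrays did not overlap for 95.2% of the called probes and for 26.2% of all probes tested. Each slide held FOXP1 and GFP arrays of either 0 and 12 h or 24 and 72 h, and the slides taken alone gave 2827 and 4436 calls, 2 arrays against 2. The count depended on the processing of the signal. With normexp correction, which models each spot as background plus a positive signal and here also used the median spot intensity and an added offset, 1426 probes were called, 905 higher and 521 lower, so that the share of higher probes went from 52.0 to 63.5%. Of the 1426, 1404 were among the 4122. That correction also shifted the median of all probes to 0.22, and medians after normexp correction below are to be read against that shift.

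Gene names were available for a part of the probes only. The array files name probes and not genes, and symbols were taken from the study's supplementary lists of regulated genes, which cover 2503 of the tested probes and 1664 of the called ones (66.5% called), while 2458 called probes have no symbol. Of the 1702 tested probes listed for IMR-32, 1594 were called, 786 higher and 808 lower. The study chose these probes on the same arrays, so neither the share of called genes in any gene group below nor its direction is independent evidence. The 801 tested probes that were listed only for another line had 70 calls (8.74%), 32 higher and 38 lower, below the 12.2% of all probes. Genes were grouped into 22 functional lists, for each of which the number of called members and the median log2 difference are given. Where no array of the lower culture was well above background, which held for 205 of the probes called higher and 274 of those called lower, the fold change is a lower bound against the lowest signal flagged well above background on those arrays, written as at least N-fold. Where only some arrays of the lower culture were not well above background, their signals were raised to the same limit for the fold change. These are bounds within the main processing only. Of 69 called genes among those chosen below that have such a bound, 68 had a smaller fold change after normexp correction, including all 35 that kept their call. That correction adds 50 to every spot, more than the lowest flagged signals of these arrays (8.88 to 19.6). Such an offset makes the differences of dim probes smaller, so this count is no independent check of the bounds. The median size of the difference over the 119 called genes went from 4.87 to 2.10. RELN, for example, differed by 4.35 and KCNK1 by -3.63 after that correction, and GREM1 by 2.71, NPY2R by 4.36, NPFFR2 by 2.94 and HOXC8 by 1.89.

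**Figure D2:**
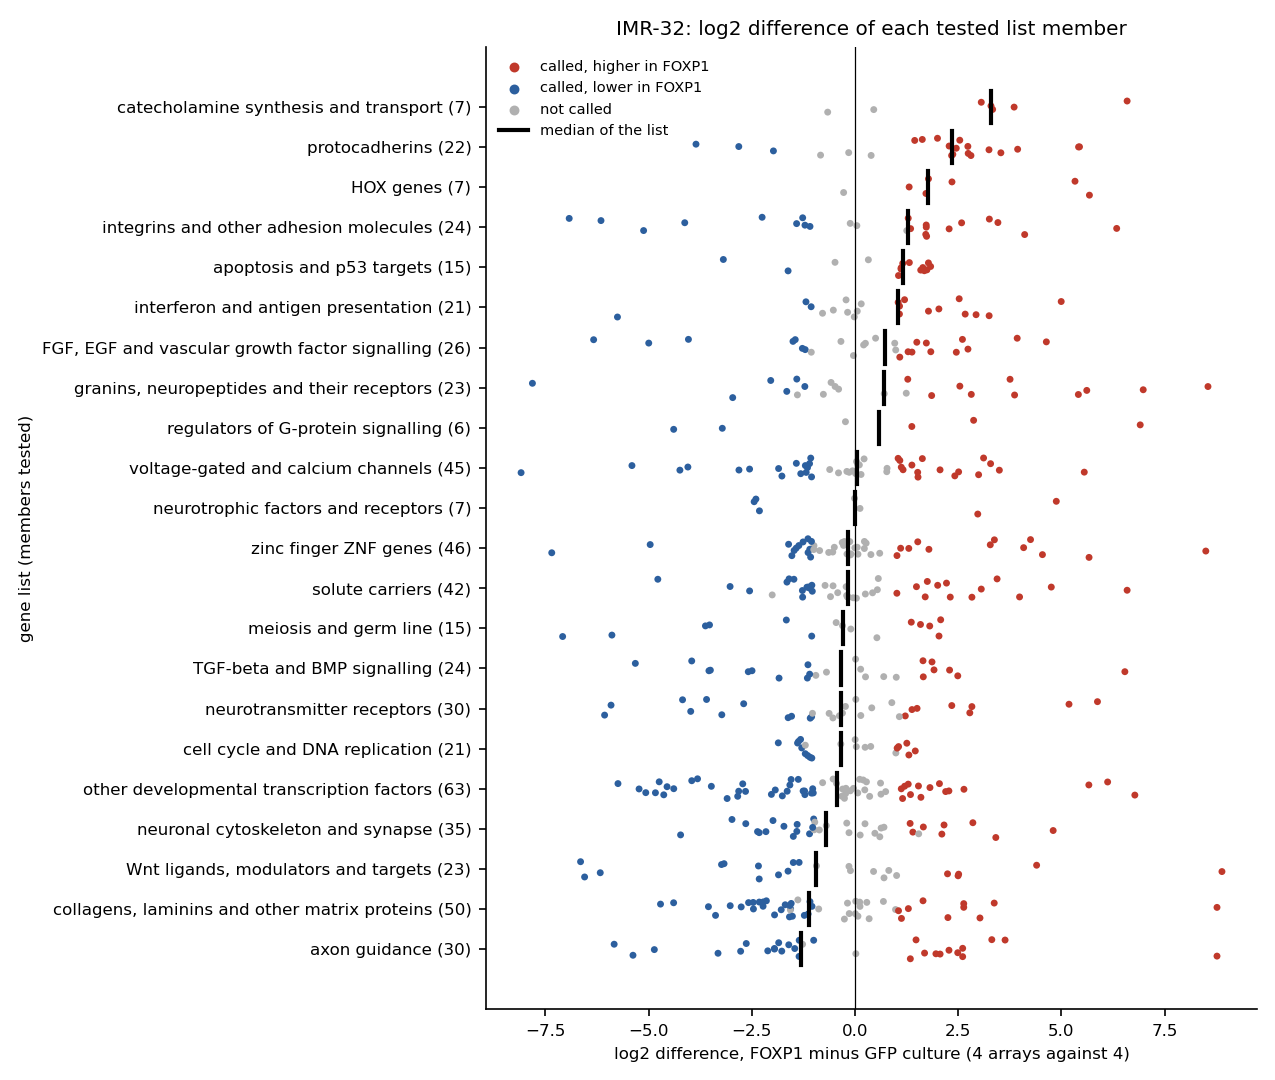
Log2 difference between the FOXP1 and GFP cultures of IMR-32 (4 arrays against 4) for each tested member of the 22 gene lists, with the number of members tested in brackets. Red and blue points were called higher and lower, grey points were not called, black bars are list medians, and members not well above background in the lower culture are drawn at their measured difference. In the main processing, the catecholamine list has the highest median (3.29) and axon guidance the lowest (-1.31). After normexp correction the lowest median was that of the cell cycle list (-0.35), and axon guidance stood at 0.06. Most lists hold called genes in both directions.

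Most genes tested for catecholamine synthesis and transport were higher in FOXP1 cells. Of 7 members tested, 5 were higher, 0 lower and 2 not called, with a median log2 difference of 3.29 against -0.01 for all probes. TH, tyrosine hydroxylase, catalyses the first and rate-limiting step from tyrosine. Its level was -1.22, -1.66, -1.46 and -0.29 on the GFP arrays of 0, 12, 24 and 72 h and 2.03, 2.33, 1.87 and 2.46 on the FOXP1 arrays. The groups did not overlap, and both cultures were highest at 72 h. The log2 difference of TH was 3.33 (standard error 0.29, adjusted p = 2.33e-05). DBH, dopamine beta-hydroxylase, turns dopamine into noradrenaline. Its GFP arrays had levels of -1.05, -1.36, -0.90 and 0.04 and its FOXP1 arrays 2.85, 2.96, 2.80 and 3.55, in the same order of time. Here too the highest array of each culture was that of 72 h, and the lowest FOXP1 array was far above the highest GFP array. DBH differed by 3.85 (standard error 0.30, adjusted p = 1.13e-05). CYB561, the cytochrome of chromaffin granules that passes electrons for the DBH reaction, had levels between -4.46 and -3.72 in GFP cells and between -1.43 and -0.05 in FOXP1 cells, 9.80-fold higher (adjusted p = 2.38e-05).

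Both transporters measured in this list rose as well. SLC6A2, the noradrenaline transporter that takes the transmitter back up, had levels of -1.04 to -0.49 in GFP cells and 1.81 to 2.66 in FOXP1 cells, 8.33-fold higher (adjusted p = 6.54e-06). SLC18A1, which loads monoamines into vesicles, had levels of -7.63, -6.73, -7.13 and -5.83 on the GFP arrays and -1.31, -0.73, 0.27 and 0.81 on the FOXP1 arrays at 0, 12, 24 and 72 h. It was at least 68.0-fold higher (adjusted p = 8.82e-06), a value that rests on 2 of 4 GFP arrays well above background. The levels of SLC18A1 in the FOXP1 culture were higher at each later time point. PNMT, which converts noradrenaline into adrenaline, and MAOA, which degrades monoamines, were not called. PNMT had a difference of -0.66 (adjusted p = 0.0326), with all 4 FOXP1 arrays below the GFP arrays but a fold change under 2, and MAOA of 0.45 (adjusted p = 0.296).

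Neurotrophic factors and their receptors moved in both directions. Of 7 tested, 2 were higher, 3 lower and 2 not called, with a median of -0.01, equal to that of all probes, and of 0.14 after normexp correction. RET is the receptor tyrosine kinase for ligands of the GDNF family, which it binds together with a GFRA co-receptor. Its level was -4.34, -3.41, -3.00 and -3.13 on the GFP arrays of 0, 12, 24 and 72 h and -0.67, -0.49, -1.16 and 0.33 on the FOXP1 arrays. Every FOXP1 array was above every GFP array, with the lowest FOXP1 level at 24 h and the lowest GFP level at 0 h. Its log2 difference was 2.97 (standard error 0.36, adjusted p = 0.000254). GFRA1, the co-receptor for GDNF, had levels of -7.65, -6.79, -6.70 and -8.00 on the GFP arrays, of which 1 was well above background, and of -3.32, -2.61, -1.83 and -1.87 on the FOXP1 arrays. The FOXP1 culture was higher throughout, most of all at 24 and 72 h. GFRA1 was at least 16.5-fold higher (adjusted p = 1.46e-05).

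The co-receptor of another ligand went the other way. GFRA3, which binds artemin, had levels between -1.55 and -0.78 in GFP cells and between -4.68 and -3.16 in FOXP1 cells, a difference of -2.44 (adjusted p = 0.000391). NRTN, the ligand neurturin, was at least 4.75-fold lower (adjusted p = 0.00052), with 2 of 4 FOXP1 arrays well above background. BDNF, the ligand of the receptor TrkB, was at least 4.30-fold lower (adjusted p = 0.000276), with 1 of 4 FOXP1 arrays well above background. These 3 genes fell without overlap between the cultures, but their calls were lost after normexp correction. GFRA2, the co-receptor for neurturin, had a difference of -0.01 (adjusted p = 0.987), and NTF3, the ligand of TrkC, of 0.12 (adjusted p = 0.732).

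Promoters of 4 of the genes that rose are shown because FOXP1 binds forkhead motifs, whose core TGTTTAC was searched on both strands. Each sequence is RefSeq's 250 bases before and 50 bases after the gene start in build GRCh38.p14, 5′ to 3′ along the gene, with any match in capitals (GTAAACA is the motif on the opposite strand). They lie at chr10:43076819-43077118 on the plus strand (RET), chr10:116274656-116274955 on the minus strand (GFRA1), chr12:54016638-54016937 on the plus strand (HOXC5) and chr2:170715087-170715386 on the plus strand (SP5).
RET: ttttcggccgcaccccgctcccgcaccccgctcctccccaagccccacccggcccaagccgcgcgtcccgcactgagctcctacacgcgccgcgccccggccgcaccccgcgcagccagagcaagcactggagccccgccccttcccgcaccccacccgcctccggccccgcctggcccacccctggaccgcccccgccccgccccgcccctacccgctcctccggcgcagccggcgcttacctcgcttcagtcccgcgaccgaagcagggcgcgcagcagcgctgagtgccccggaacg
GFRA1: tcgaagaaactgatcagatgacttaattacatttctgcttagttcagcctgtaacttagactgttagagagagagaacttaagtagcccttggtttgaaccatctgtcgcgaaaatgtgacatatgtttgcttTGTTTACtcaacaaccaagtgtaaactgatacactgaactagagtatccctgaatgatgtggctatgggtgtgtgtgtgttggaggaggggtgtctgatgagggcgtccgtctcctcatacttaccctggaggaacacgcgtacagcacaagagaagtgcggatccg
HOXC5: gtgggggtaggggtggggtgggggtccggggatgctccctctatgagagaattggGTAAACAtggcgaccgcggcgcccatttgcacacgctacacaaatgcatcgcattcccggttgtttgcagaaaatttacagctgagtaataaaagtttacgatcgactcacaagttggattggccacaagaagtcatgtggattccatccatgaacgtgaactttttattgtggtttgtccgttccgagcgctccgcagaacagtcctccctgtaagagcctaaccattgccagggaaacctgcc
SP5: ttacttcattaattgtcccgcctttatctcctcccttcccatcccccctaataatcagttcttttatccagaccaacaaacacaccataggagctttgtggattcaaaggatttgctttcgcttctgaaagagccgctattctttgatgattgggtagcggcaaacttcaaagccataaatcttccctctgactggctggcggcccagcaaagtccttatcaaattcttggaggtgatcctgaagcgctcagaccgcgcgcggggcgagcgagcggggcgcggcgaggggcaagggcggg
The motif occurred 1 time in the window of GFRA1, beginning 117 bases before the start, and 1 time in that of HOXC5, beginning 195 bases before it. The windows of RET and SP5 held 0 matches. Among all 27305 promoters of the table, 931 held the motif (3.41%). Among 1897 tested genes with a promoter in the table, the share was 2.21%, with 16 of 631 genes called higher (2.54%), 13 of 652 called lower (1.99%) and 13 of 614 not called (2.12%). Of the called genes among those chosen, CTSF, MBP, BDNF, HOXC5 and GFRA1 held it, the first 3 of them lower in FOXP1 cells. HOXC5 and GFRA1 are the only ones of these that rose, and both are among the 4 shown. The 4 windows therefore give no rate of matches. A match describes letters in this window and not a bound site.

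Most HOX genes tested were higher in FOXP1 cells. Of 7 tested, 6 were higher, 0 lower and 1 not called, with a median of 1.78, or 1.72 with members at their lower bound, and another 7 with a probe were too dim to test. HOXC9, a posterior HOX gene of the HOXC cluster, had levels of -4.11, -3.72, -3.80 and -3.58 on the GFP arrays of 0, 12, 24 and 72 h and of 2.06, 2.14, 1.77 and 1.53 on the FOXP1 arrays. The cultures were widely apart at every time point, and were farthest apart at 0 h. The log2 difference of HOXC9 was 5.68 (standard error 0.19, adjusted p = 4.37e-08). Its neighbours in the cluster were higher too. HOXC8 was well above background on none of the GFP arrays and had levels of -3.41, -2.97, -3.21 and -3.21 on the FOXP1 arrays, at least 10.3-fold higher (adjusted p = 3.79e-07). HOXC6 had a measured difference of 1.72 (adjusted p = 0.0134), with 1 of 4 GFP arrays well above background and a fold change of at least 1.95.

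HOXC5 had levels of -8.68, -6.44, -4.52 and -5.85 on the GFP arrays and of -3.83, -3.74, -4.16 and -4.37 on the FOXP1 arrays. Its FOXP1 levels were close together and its GFP levels spread widely, lowest at 0 h, where the GFP array was not well above background. The measured difference was 2.35 (adjusted p = 0.0379), at least 3.52-fold. The call of HOXC5 was lost without any 1 of 6 arrays, with differences of 2.33 without the GFP array of 12 h (adjusted p = 0.0738), 2.52 without the GFP array of 72 h (0.054), and 2.28, 2.25, 2.40 and 2.46 without the FOXP1 array of 0, 12, 24 or 72 h (0.0874, 0.0783, 0.0704 and 0.0667). From 12, 24 and 72 h alone its difference was 1.51 (adjusted p = 0.0712). On the slide of 24 and 72 h it was 0.92 (0.195), and with all probes tested its adjusted p was 0.0633. In other clusters, HOXD10 had levels between -3.22 and -2.64 in GFP cells and between -2.09 and -1.36 in FOXP1 cells, 2.48-fold higher (adjusted p = 0.00123). HOXA10 was at least 1.32-fold higher (adjusted p = 0.00269). HOXB5 was well above background on 2 arrays of each culture and had a difference of -0.28 (adjusted p = 0.85). The calls of HOXC5, HOXC6 and HOXA10 were lost after normexp correction, which left 3 called members and a median of 1.11. On the slide of 0 and 12 h alone HOXC6 was not called either (difference 0.79, adjusted p = 0.148).

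Genes of the Wnt pathway were called in both directions. Of 23 ligands, modulators and targets tested, 5 were higher, 11 lower and 7 not called, with a median of -0.93. The median was -0.13 after normexp correction, with 4 higher and 5 lower. SP5, a zinc finger transcription factor and direct target of Wnt signalling through beta-catenin, had levels of -6.03, -5.37, -5.54 and -5.03 on the GFP arrays of 0, 12, 24 and 72 h and of 3.24, 3.64, 3.47 and 3.21 on the FOXP1 arrays. All 8 arrays were well above background, and SP5 lay far below the 75th percentile in GFP cells and far above it in FOXP1 cells. Its log2 difference was 8.89 (standard error 0.22, adjusted p = 1.18e-08). TCF7L1, a DNA-binding partner of beta-catenin that represses Wnt targets in its absence, was at least 16.3-fold higher (adjusted p = 4.34e-05), with 2 of 4 GFP arrays well above background. RSPO2, a secreted protein that strengthens Wnt signals, had levels of -2.43, -1.94, -1.70 and -2.19 on the GFP arrays and was well above background on 0 FOXP1 arrays, at least 24.6-fold lower (adjusted p = 6.36e-08). FZD1, a Wnt receptor, was at least 20.8-fold lower (adjusted p = 3.97e-08). The calls of RSPO2 and FZD1 were lost after normexp correction. AXIN2, LGR5, NKD2 and DKK1 of the same list were called lower in the main processing, with differences of -1.85, -2.34, -3.23 and -6.17. SP5 therefore does not stand for the whole list.

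Other developmental transcription factors were called in both directions too. Of 63 tested, 15 were higher, 29 lower and 19 not called, with a median of -0.45. The median turned to 0.09 after normexp correction, with 10 higher and 10 lower. GATA6, a GATA factor of heart and endoderm, had levels of -5.71, -5.70, -5.48 and -5.64 on the GFP arrays and of 1.09, 1.06, 1.20 and 1.24 on the FOXP1 arrays, in order of time. Its arrays within a culture differed little, and the difference was 6.78 (standard error 0.14, adjusted p = 4.4e-09). FOXF1, a forkhead factor of the mesenchyme, was 69.5-fold higher (adjusted p = 3.7e-07). TFAP2B, an AP-2 factor of the neural crest and sympathetic neurons, had levels between -1.95 and -0.60 in GFP cells and between 4.30 and 4.80 in FOXP1 cells, a difference of 5.66 (adjusted p = 6.7e-07). Among those that fell, SALL4, a zinc finger factor of pluripotent cells, had levels of -0.38, -0.09, 0.12 and 0.16 on the GFP arrays and of -5.57, -5.24, -5.36 and -4.96 on the FOXP1 arrays. SALL4 was 37.5-fold lower (adjusted p = 6.67e-08), with all arrays well above background. ISL2, a LIM homeodomain factor of motor neurons, was at least 13.3-fold lower (adjusted p = 6.67e-08), and its call was lost after normexp correction.

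Genes of TGF-beta and BMP signalling were also called both ways. Of 24 tested, 7 were higher, 10 lower and 7 not called, with a median of -0.34. After normexp correction 4 were higher and 1 lower, and the median turned to 0.24. GREM1, which binds and blocks BMPs, was well above background on 0 GFP arrays and had levels of -1.09, -2.34, -1.45 and -1.87 on the FOXP1 arrays, at least 29.5-fold higher (adjusted p = 1.47e-07). CHRDL2, another BMP antagonist, was at least 15.5-fold lower (adjusted p = 9.31e-07), with 3 of 4 FOXP1 arrays well above background. ID4, a helix-loop-helix inhibitor of differentiation factors, was at least 8.45-fold lower (adjusted p = 1.79e-05), and its GFP level went from -2.51 at 0 h to -4.85 at 72 h. The calls of CHRDL2 and ID4 were lost after normexp correction.

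Growth factor signalling of the FGF, EGF and vascular families had 11 of 26 members higher, 7 lower and 8 not called, with a median of 0.73. After normexp correction 4 were higher and 0 lower. ERBB4, a receptor for neuregulins, was at least 14.7-fold higher (adjusted p = 2.67e-06), with 1 of 4 GFP arrays well above background. ANGPT2, a ligand of the endothelial receptor TIE2, was at least 15.2-fold higher (adjusted p = 1.62e-06), with 3 of 4. Its levels lay between -5.94 and -5.01 in GFP cells and between -2.00 and -1.58 in FOXP1 cells. IGFBP7, a secreted protein of the IGF-binding family, had levels of -3.18, -2.67, -2.51 and -1.89 on the GFP arrays, higher at each later time point, and was well above background on 0 FOXP1 arrays. It was at least 17.4-fold lower (adjusted p = 2.73e-07). FGFR2, a receptor for fibroblast growth factors, was at least 11.9-fold lower (adjusted p = 1.94e-05). The calls of IGFBP7 and FGFR2 were lost after normexp correction.

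Axon guidance genes were called in both directions. Of 30 tested, 12 were higher, 16 lower and 2 not called. All but 1 are listed for IMR-32. Of all 1702 tested probes so listed 1594 were called, so the high share is not particular to this list. The list median was -1.31, or -1.13 with members at their lower bound. It turned to 0.06 after normexp correction, with 9 members higher and 5 lower. RELN, the secreted glycoprotein that positions migrating neurons, was well above background on none of the GFP arrays and had levels of 0.38, -0.29, 0.64 and 0.16 on the FOXP1 arrays of 0, 12, 24 and 72 h. It was at least 111-fold higher (adjusted p = 3.49e-08). NTNG1, a membrane-bound netrin, had levels between -4.18 and -3.58 in GFP cells and between -0.57 and 0.13 in FOXP1 cells, 12.4-fold higher (adjusted p = 1.21e-06). SEMA3A, a secreted repellent of growth cones, was at least 14.4-fold lower (adjusted p = 2.21e-07), and UNC5D, a netrin receptor, at least 8.94-fold lower (adjusted p = 2.54e-07). Both were well above background on 4 of 4 GFP and 0 of 4 FOXP1 arrays, and both calls were lost after normexp correction.

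Protocadherins, cadherin-like adhesion molecules whose clustered members give neurons distinct surface identities, were mostly higher. Of 22 tested, 16 were higher, 3 lower and 3 not called, with a median of 2.35, and 12 were higher and 1 lower after normexp correction. PCDHB16 and PCDHB2 belong to the beta cluster. PCDHB16 had levels of -5.55, -6.02, -5.99 and -6.04 on the GFP arrays and of -0.75, -0.57, -0.46 and -0.08 on the FOXP1 arrays, in order of time. Its difference was 5.44 (standard error 0.19, adjusted p = 6.36e-08), without overlap. PCDHB2 differed by 5.41 (adjusted p = 2.88e-08). Of the members that fell, PCDH9 and PCDH7 lie outside the clusters. PCDH9 had levels between -0.18 and 0.62 in GFP cells and between -3.02 and -2.35 in FOXP1 cells, 7.03-fold lower (adjusted p = 1.24e-05), and PCDH7 was at least 7.16-fold lower (adjusted p = 0.000184), a call that was lost after normexp correction.

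More matrix genes were called lower than higher, but not after normexp correction. Of 50 collagens, laminins and other matrix proteins tested, 10 were higher, 25 lower and 15 not called, with a median of -1.11, which was 0.02 after that correction with 5 members higher and 4 lower. COL16A1, a fibril-associated collagen, had levels of 0.48, 0.41, 1.79 and 2.73 on the GFP arrays of 0, 12, 24 and 72 h and of -4.13, -4.05, -3.00 and -2.25 on the FOXP1 arrays. Both cultures had their highest levels at 24 and 72 h, and the gap between them held throughout. COL16A1 was 26.2-fold lower (adjusted p = 0.000257). ADAMTS8, a secreted metalloprotease, was at least 12.5-fold lower (adjusted p = 1.1e-05), and its call was lost after normexp correction. SPOCK3, a testican proteoglycan, was 10.3-fold higher (adjusted p = 7.07e-07), with levels of -1.39 to -0.79 in FOXP1 cells and -4.55 to -4.41 in GFP cells.

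Integrins and other adhesion molecules had 12 of 24 members higher, 9 lower and 3 not called, with a median of 1.27, and 6 were higher and 1 lower after normexp correction. SLITRK5, a transmembrane protein that helps to form synapses, was well above background on none of the GFP arrays and had levels of -1.44, -1.53, -1.36 and -1.51 on the FOXP1 arrays, at least 34.5-fold higher (adjusted p = 1.86e-07). CADM2, an immunoglobulin-like adhesion molecule of neurons, was at least 7.82-fold higher (adjusted p = 9.3e-05). ITGA4, the alpha-4 integrin that binds VCAM1 and fibronectin, went the opposite way. It had levels of -2.28, -1.79, -1.50 and -1.99 on the GFP arrays and was at least 27.7-fold lower in FOXP1 cells (adjusted p = 4.37e-08), where 0 arrays were well above background. AMIGO2 was at least 14.9-fold lower (adjusted p = 8.05e-08). The calls of CADM2, ITGA4 and AMIGO2 were lost after normexp correction.

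Ion channels were called in equal numbers each way, though not after normexp correction. Of 45 ion channel genes tested, 16 were higher, 16 lower and 13 not called, with a median of 0.04. After that correction 7 were higher and 4 lower, with a median of 0.26. KCNK1, a potassium leak channel with paired pore domains, had levels of -0.38, 0.11, 0.30 and 0.26 on the GFP arrays of 0, 12, 24 and 72 h and was well above background on 0 FOXP1 arrays. It was at least 108-fold lower (adjusted p = 2.2e-08). ACCN2, the acid-sensing ion channel now named ASIC1, was well above background on all 8 arrays. Its levels of 0.33 to 0.92 in GFP cells stood against -4.93 to -4.63 in FOXP1 cells, 42.3-fold lower (adjusted p = 4.77e-08). KCNH5, a voltage-gated potassium channel, was at least 10.5-fold higher (adjusted p = 3.52e-07), and SCN2A, a neuronal sodium channel, at least 9.47-fold higher (adjusted p = 2.28e-05), although the call of SCN2A was lost after normexp correction.

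Receptors for transmitters had 8 of 30 members higher, 11 lower and 11 not called, with a median of -0.34. After normexp correction 5 were higher and 2 lower, and the median turned to 0.27. HRH1, the histamine H1 receptor, was at least 12.6-fold higher (adjusted p = 4.17e-07). GRIA3, an AMPA glutamate receptor subunit, was at least 13.5-fold higher (adjusted p = 3.36e-05), with 1 of 4 GFP arrays well above background. GABRA5, a subunit of the GABA-A receptor, had levels of -0.82, -1.09, -0.68 and -0.82 on the GFP arrays and of -6.61, -6.66, -7.33 and -7.06 on the FOXP1 arrays, of which 2 were well above background. GABRA5 was at least 51.0-fold lower (adjusted p = 3.97e-08), without overlap between the cultures. CHRNB4, a nicotinic acetylcholine receptor subunit of autonomic ganglia, was at least 25.4-fold lower (adjusted p = 2.04e-06). The calls of GABRA5 and CHRNB4 were lost after normexp correction.

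Regulators of G-protein signalling, which shorten the active state of G-protein alpha subunits, included 3 higher, 2 lower and 1 not called of 6 tested, with a median of 0.57, and 3 were higher and 1 lower after normexp correction. RGS5, a marker of pericytes, had levels of -2.68, -2.27, -2.26 and -1.77 on the GFP arrays and of 4.36, 4.59, 4.57 and 5.13 on the FOXP1 arrays, in order of time. Both cultures were highest at 72 h, and all 8 arrays were well above background. RGS4 was 7.32-fold higher (adjusted p = 4.88e-05) and RGS7 2.60-fold higher (adjusted p = 0.00144). RGS16 was 21.0-fold lower (adjusted p = 9.65e-06) and RGS11 9.28-fold lower (adjusted p = 0.0002). RGS17 had a difference of -0.23 (adjusted p = 0.436). The call of RGS16 was lost after normexp correction, and that of RGS7 on the slide of 0 and 12 h alone (difference 1.24, adjusted p = 0.0906).

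Peptide signalling showed large differences in each direction. Of 23 granins, neuropeptides and their receptors tested, 10 were higher, 6 lower and 7 not called, with a median of 0.71, and 9 were higher and 3 lower after normexp correction. CHGB, chromogranin B of the dense-core granules that store catecholamines, had levels of 1.33, 1.05, 1.06 and 1.54 on the GFP arrays of 0, 12, 24 and 72 h and of 3.39, 3.76, 4.44 and 4.65 on the FOXP1 arrays. It rose 7.04-fold (adjusted p = 5.84e-05), and its FOXP1 levels were higher at each later time point. NPY2R, a receptor for neuropeptide Y, was at least 92.9-fold higher (adjusted p = 1.95e-08), and NPFFR2, a receptor for neuropeptide FF, at least 34.3-fold higher (adjusted p = 8.05e-08). NPW, neuropeptide W, had levels of 1.59, 1.37, 0.68 and 1.09 on the GFP arrays and of -5.82, -6.58, -6.86 and -7.26 on the FOXP1 arrays, of which 2 were well above background. NPW fell at least 179.6-fold (adjusted p = 1.22e-07). VIPR1, a receptor for vasoactive intestinal peptide, was at least 5.64-fold lower (adjusted p = 0.00018), a call that was lost after normexp correction.

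Of 35 neuronal cytoskeleton and synapse genes tested, 8 were higher, 14 lower and 13 not called, with a median of -0.70. The median turned to 0.26 after normexp correction, with 4 higher and 6 lower. DLGAP1, a scaffold of the postsynaptic density, was at least 11.6-fold higher (adjusted p = 2.53e-06), with 1 of 4 GFP arrays well above background. SYNPR, a protein of synaptic vesicles, had levels of -8.47, -6.29, -3.87 and -3.61 on the GFP arrays and of -3.04, -2.72, -1.55 and -1.28 on the FOXP1 arrays. Both cultures had higher SYNPR levels at each later time point, the spread of the GFP arrays was wide, and 3 of these 4 were well above background. Its measured difference was 3.41 (standard error 0.97, adjusted p = 0.0303), at least 7.60-fold. The SYNPR call was lost without the GFP array of 12 h (difference 3.17, adjusted p = 0.0722), without the FOXP1 array of 24 h (3.21, 0.0745) or of 72 h (3.12, 0.083), and with all probes tested (adjusted p = 0.0518). SYT6, a synaptotagmin, was at least 4.49-fold lower (adjusted p = 5.11e-06), and CNTNAP2, which organises channels along axons, at least 6.88-fold lower (adjusted p = 6.65e-05) with 2 of 4 FOXP1 arrays well above background. The calls of SYNPR, SYT6 and CNTNAP2 were lost after normexp correction. The paper reports MAP2, NEFL and NPY as raised by FOXP1 in IMR-32. In the main processing MAP2 differed by 1.40 and was called higher, while NEFL (0.70) and NPY (-0.77) were not called.

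Some genes of meiosis and the germ line differed strongly between the cultures. Of 15 tested, 5 were higher, 6 lower and 4 not called, with a median of -0.30, and another 14 with a probe were too dim to test. After normexp correction 3 were higher and 1 lower, and the median turned to 0.19. REC8, the cohesin subunit that holds sister chromatids together in meiosis, had levels of 4.14, 4.03, 4.20 and 4.27 on the GFP arrays of 0, 12, 24 and 72 h and of -3.39, -3.72, -2.36 and -2.23 on the FOXP1 arrays. It lay far above the 75th percentile in GFP cells and far below it, though well above background, on every FOXP1 array. The log2 difference of REC8 was -7.08 (standard error 0.32, adjusted p = 2.54e-07). STAG3, another meiotic cohesin subunit, had levels between -3.20 and -2.53 in GFP cells and between -1.07 and -0.73 in FOXP1 cells, 4.10-fold higher (adjusted p = 2.88e-05). SYCP2, of the synaptonemal complex, was 3.51-fold higher (adjusted p = 0.00349). PIWIL4, which binds the small RNAs that silence transposons in the germ line, was at least 14.8-fold lower (adjusted p = 3.52e-08). The calls of SYCP2 and PIWIL4 were lost after normexp correction, and that of SYCP2 also on the slide of 0 and 12 h alone (difference 1.37, adjusted p = 0.0707).

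Apoptosis genes and p53 targets were mostly higher, by modest factors. Of 15 tested, 11 were higher, 2 lower and 2 not called, with a median of 1.16, and 4 were higher and 1 lower after normexp correction. TP53INP1, a p53 target that promotes cell death, had levels of -1.20, -0.93, -0.46 and -0.43 on the GFP arrays and of 0.69, 0.86, 1.26 and 1.50 on the FOXP1 arrays, in order of time. The levels were higher at each later time point in both cultures without the groups overlapping, and the difference was 1.83 (standard error 0.24, adjusted p = 0.000409). CCNG2, a cyclin that accompanies cell cycle arrest, was 3.43-fold higher (adjusted p = 0.0109), with the lowest level on the GFP array of 0 h. AIFM2, an oxidoreductase related to the apoptosis-inducing factor, had levels of -1.54 to -0.74 in GFP cells and of -4.41 to -4.05 in FOXP1 cells, 9.12-fold lower (adjusted p = 4.9e-06). HRK, a BH3-only protein of the BCL2 family, was 3.07-fold lower (adjusted p = 0.000501). The calls of CCNG2 and AIFM2 were lost after normexp correction, that of CCNG2 with a difference of 1.62 (adjusted p = 0.0521) against 1.78 before. The call of CCNG2 was also lost on the slide of 0 and 12 h alone (difference 2.04, adjusted p = 0.0644).

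Cell cycle genes had 5 of 21 members higher, 9 lower and 7 not called, with a median of -0.34. CDC7, the kinase that fires replication origins, was 2.75-fold higher (adjusted p = 0.000407), and CCNB3, a B-type cyclin, 2.47-fold higher (adjusted p = 0.00169). E2F5, an E2F factor that represses cell cycle genes, had levels of 0.45, 0.60, 0.60 and 0.33 on the GFP arrays and of -1.03, -1.11, -0.66 and -0.79 on the FOXP1 arrays. It was 2.62-fold lower (adjusted p = 0.000157) without overlap. CLSPN, claspin of the replication checkpoint, was 3.62-fold lower (adjusted p = 0.00418). After normexp correction 0 members were higher and 3 lower, and the calls of CDC7, CCNB3 and CLSPN were lost, that of CDC7 with a difference of 1.32 (adjusted p = 0.0572) against 1.46 before. On the slide of 0 and 12 h alone CCNB3 was not called (difference 1.33, adjusted p = 0.0588).

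Interferon and antigen presentation genes had 11 of 21 members higher, 3 lower and 7 not called, with a median of 1.05, or 0.91 with members at their lower bound. After normexp correction 4 were higher and 0 lower. AIM2, a sensor of cytosolic DNA, was at least 7.03-fold higher (adjusted p = 8.1e-07). BTN3A3, a butyrophilin, had levels of -5.21, -6.03, -5.02 and -5.00 on the GFP arrays and of -2.12, -2.56, -1.69 and -1.90 on the FOXP1 arrays, without overlap, and was 9.50-fold higher (adjusted p = 1.8e-05). HERC5, which attaches the ubiquitin-like protein ISG15, was at least 15.4-fold lower (adjusted p = 3.83e-07), and PLSCR1, a phospholipid scramblase induced by interferon, 2.28-fold lower (adjusted p = 0.00476). The calls of HERC5 and PLSCR1 were lost after normexp correction, and that of PLSCR1 on the slide of 0 and 12 h alone (difference -1.03, adjusted p = 0.0973).

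Solute carriers had 13 of 42 members higher, 13 lower and 16 not called, with a median of -0.18. Their median turned to 0.33 after normexp correction, with 5 higher and 7 lower. Besides SLC18A1, SLC6A12, a transporter of betaine and GABA, was at least 11.3-fold higher (adjusted p = 2.51e-06). SLC38A5, a transporter of glutamine and other neutral amino acids, had levels of 0.97, 1.08, 0.40 and 1.04 on the GFP arrays and of -3.89, -3.96, -3.98 and -3.78 on the FOXP1 arrays. All 8 arrays of SLC38A5 were well above background, and it was 27.4-fold lower (adjusted p = 9.03e-08). SLC2A4, the insulin-dependent glucose transporter GLUT4, was at least 6.28-fold lower (adjusted p = 0.000281) with 3 of 4 FOXP1 arrays well above background, and its call was lost after normexp correction. Zinc finger genes of the ZNF series had 12 of 46 members higher, 13 lower and 21 not called, with a median of -0.16. Their median turned to 0.23 after normexp correction, with 6 higher and 3 lower. ZNF300 had levels of -4.90 to -4.63 in GFP cells and of 0.59 to 1.06 in FOXP1 cells, 50.8-fold higher (adjusted p = 2.2e-08). ZNF334 was at least 53.2-fold lower (adjusted p = 5.18e-08) and ZNF556 at least 11.4-fold lower (adjusted p = 5.16e-05), but both calls were lost after normexp correction.

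The 10 highest and 10 lowest measured differences were taken among called probes with a symbol whose higher culture was well above background on all 4 arrays and whose groups did not overlap. Their order includes differences from signals not well above background, so neither the ranks nor the place in the 10 is exact. PPP1R9A, neurabin, which binds actin and protein phosphatase 1 in dendritic spines, had the highest measured difference. It was well above background on 0 GFP arrays and had levels of 2.54, 2.16, 2.48 and 2.46 on the FOXP1 arrays of 0, 12, 24 and 72 h, at least 505-fold higher (adjusted p = 4.4e-09). CXCL14, a chemokine, had levels of 0.40, 0.69, 0.20 and 0.29 on the FOXP1 arrays and was at least 125-fold higher (adjusted p = 4.4e-09). Both were steady over the FOXP1 time points. ZNF671 was at least 236-fold higher (adjusted p = 4.4e-09) and PON2, a paraoxonase, at least 76.8-fold higher (adjusted p = 2.53e-08). PTPRK, a receptor tyrosine phosphatase of cell contacts, was at least 112-fold higher (adjusted p = 5.05e-06) with 2 of 4 GFP arrays well above background, GPR22, an orphan receptor, at least 96.8-fold (adjusted p = 6.57e-07) with 1 of 4, and IGSF21 at least 162-fold (adjusted p = 2.47e-06) with 3 of 4. The IGSF21 value leaves out an outlier spot on the FOXP1 array of 12 h. SP5, RELN and NPY2R complete the 10. RGS5, with all 8 arrays well above background, was 120.0-fold higher and lies above the lower bounds of RELN, NPY2R, PON2, PTPRK and GPR22.

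At the other end, ARMCX2 had levels of 1.31, 1.65, 1.75 and 1.41 on the GFP arrays and was well above background on 0 FOXP1 arrays, at least 296-fold lower (adjusted p = 1.04e-08). CTSF, the lysosomal protease cathepsin F, had levels of 2.74, 3.24, 3.06 and 3.16 on the GFP arrays and of -6.43, -6.01, -6.96 and -6.19 on the FOXP1 arrays, of which 3 were well above background. CTSF lay above the 75th percentile on each GFP array and was at least 598-fold lower in FOXP1 cells (adjusted p = 1.04e-08). The other 8 are KCNK1, which was described with the channels, and 7 genes with 0 FOXP1 arrays well above background. C7orf46, now FAM221A, was at least 214-fold lower (adjusted p = 6.67e-08). LMO3, a LIM-only co-factor of transcription expressed in neuroblastoma, was at least 119-fold lower (adjusted p = 2.39e-07), and TMEM163, a zinc transporter of vesicles, at least 82.7-fold (adjusted p = 4.31e-08). PH-4, the transmembrane prolyl hydroxylase now named P4HTM, was at least 175-fold lower (adjusted p = 3.11e-08), and PPP1R14A, an inhibitor of myosin phosphatase, at least 106-fold (adjusted p = 8.25e-07). SHROOM3, which constricts the apex of epithelial cells, was at least 88.6-fold lower (adjusted p = 1.43e-08), and ECHDC3 at least 119-fold (adjusted p = 3.66e-08).

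**Figure D3:**
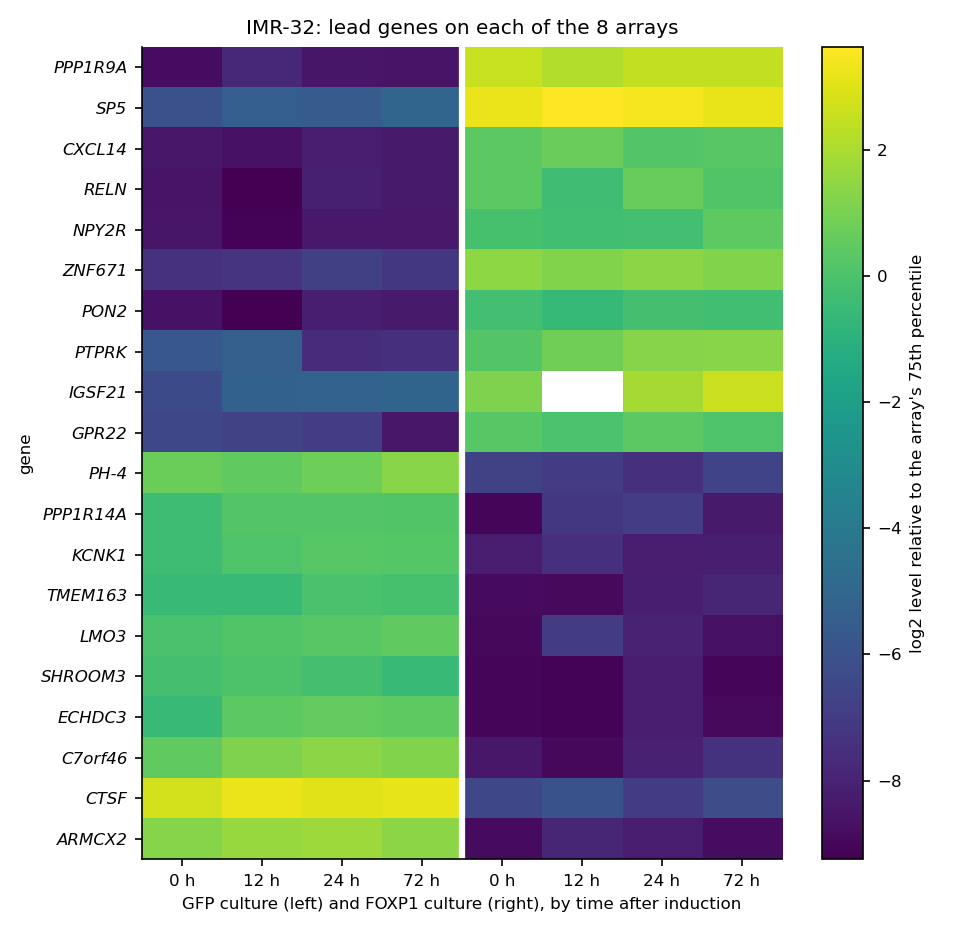
Level of the 10 highest and 10 lowest called genes (rows) on the 8 IMR-32 arrays (columns, GFP culture on the left and FOXP1 culture on the right, by hours after induction), coloured by log2 of the processed signal relative to the array's 75th percentile. The white cell is an outlier spot that was left out. Rows were chosen for a large measured difference between the cultures.

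Markers of cell states and cell types were read as whole lists, each of them covered only in part by probes with a symbol. The noradrenergic neuroblast list holds 19 markers, of which 9 had a probe and 8 were tested, with 7 higher, 0 lower and 1 not called, a median of 3.20. The summed signal of its 9 probes, relative to the 75th percentile of each array, was 16.0, 13.6, 12.0 and 12.5 on the GFP arrays of 0, 12, 24 and 72 h and 59.1, 61.8, 76.7 and 84.7 on the FOXP1 arrays. The sum was thus higher on every FOXP1 array, and its brightest probe there was TFAP2B. Of the 29 markers of the mesenchymal neuroblastoma state, 10 had a probe and 7 were tested, with 4 higher, 2 lower and 1 not called, a median of 1.35. CYR61, now CCN1, a matrix protein induced by YAP, was 14.2-fold higher (adjusted p = 2e-06), FOSL2, an AP-1 factor, 5.01-fold (adjusted p = 3.42e-05), RUNX1 2.90-fold (adjusted p = 0.000625) and LGALS1, galectin-1, 2.55-fold (adjusted p = 0.000416). SNAI1, a repressor of E-cadherin, was 2.56-fold lower (adjusted p = 0.000408), and S100A6, a calcium-binding protein, at least 43.2-fold lower (adjusted p = 2.63e-08). JUN differed by 0.97 (adjusted p = 0.0226), just under the 2-fold limit. JUN passed that limit after quantile normalization (1.05, adjusted p = 0.0172), on the slide of 0 and 12 h (1.32, 0.0248), without the GFP array of 72 h (1.18, 0.00485) and without the FOXP1 array of 72 h (1.14, 0.0146). The summed signal of the 10 mesenchymal probes was 17.0, 16.1, 12.6 and 19.1 on the GFP arrays and 25.9, 27.1, 23.7 and 18.3 on the FOXP1 arrays, so that the order was reversed at 72 h. PRRX1, a defining marker of that state, was well above background on 0 arrays.

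Most markers of other cell types had no probe here or were too dim to test. Of 12 Schwann cell markers, 4 had a probe and 3 were tested, with 0 higher, 2 lower and 1 not called, a median of -3.10. MBP, myelin basic protein, was at least 14.1-fold lower (adjusted p = 2.1e-07), and SOX9, a neural crest factor, 8.55-fold lower (adjusted p = 1.17e-05). GAP43, a growth cone protein that neurons express too, differed by 0.60 (adjusted p = 0.0693), and CDH19 was well above background on 0 arrays. Their summed signal was 1.86, 1.81, 1.44 and 1.41 on the GFP arrays and 2.19, 2.00, 1.75 and 1.38 on the FOXP1 arrays, most of it from GAP43. Of 14 fibroblast markers 3 had a probe, with 1 higher, 0 lower and 2 not called, a median of 0.07. PDGFRA, a receptor for platelet-derived growth factor, was 3.31-fold higher (adjusted p = 0.00127), while DCN, decorin, differed by -0.26 (adjusted p = 0.469) and COL6A2 by 0.07 (adjusted p = 0.908). The summed fibroblast signal was 0.864 to 1.88 on the GFP arrays and 2.59 to 3.83 on the FOXP1 arrays, with PDGFRA the brightest probe. Of 10 endothelial markers 7 had a probe and 3 were tested, with 0 called and a median of 0.96. ENG differed by 1.00 (adjusted p = 0.0312), KDR by 0.96 (adjusted p = 0.132) and ESAM by -0.10 (adjusted p = 0.895). ENG was called without the GFP array of 72 h (difference 1.15, adjusted p = 0.0258), without the FOXP1 array of 0 h (1.13, 0.0311) or without that of 24 h (1.20, 0.0161). The endothelial sum was 0.116 to 0.156 on the GFP arrays and 0.142 to 0.267 on the FOXP1 arrays, and TEK was well above background on 0 arrays. All 8 leukocyte markers had a probe and 1 was tested, LCP1, an actin-bundling protein, which was at least 4.02-fold higher (adjusted p = 0.00122) with 1 of 4 GFP arrays well above background. The leukocyte sum was 0.0371 to 0.0647 on the GFP arrays and 0.066 to 0.148 on the FOXP1 arrays, and PTPRC, CD48 and SRGN were well above background on 0 arrays. The calls of S100A6, MBP, SOX9 and LCP1 were lost after normexp correction, and that of LCP1 on the slide of 0 and 12 h alone (difference 2.47, adjusted p = 0.0598). The part of other cell types or cell states in the results was not tested.

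The differences of the chosen genes were there at the first time point. Of 133 chosen genes, 119 were called, and 117 of these were at least 2-fold apart in the called direction at 0 h, against 18.4% of all tested probes that were 2-fold apart either way. The exceptions were HOXC6, with a log2 ratio of 0.51 at 0 h, and PLSCR1, with -0.62. At all 4 time points, 118 of the 119 had the called direction, and the other is IGSF21, whose spot at 12 h was left out. The groups were chosen with the 0 h arrays included, so these counts describe the chosen genes and do not test the time of onset.

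IMR-32 was set against CHP-212 because the FOXP1 probe was higher in FOXP1 cells of both. Most IMR-32 calls tested in both lines were not calls in CHP-212. SP5, HOXC9 and RET were called higher in FOXP1 cells of IMR-32 and not called in CHP-212. RELN, IGFBP7 and VIPR1 moved in opposite directions, and DBH, GREM1, CXCL14 and PDGFRA rose in both lines. The IMR-32 calls of IGFBP7, VIPR1 and, further below, GABRA5 were lost after normexp correction, with differences of -1.73, -0.34 and -2.80. In CHP-212, 997 of 32958 probes were called (3.03%). Of 31452 probes tested in both lines, 314 were called in both, which is 9.38% of the 3349 IMR-32 calls and 37.7% of the 832 CHP-212 calls among them. Over all probes tested in a line, the shares called were 3.03% in CHP-212 and 12.2% in IMR-32. The 314 probes moved the same way in 184 cases and opposite ways in 130, of which 90 were lower in IMR-32 and higher in CHP-212 and 40 the reverse.

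The difference itself was tested as the FOXP1 minus GFP difference in IMR-32 minus that in CHP-212, with all 24 arrays in a single limma fit. At an adjusted p under 0.05, 5308 of 35312 probes passed (15.0%), 2476 with the larger value in IMR-32 and 2832 with the smaller, and 9028 passed with the time point as a block. On the CHP-212 arrays of 0 and 12 h only 53.9 to 60.4% of the probes were well above background. Of the 4122 probes called in IMR-32, 2790 passed this contrast (67.7%). These probes were chosen for their IMR-32 difference on the same arrays, which is part of the contrast, so that share is no independent evidence. RELN, CXCL14, GREM1, IGFBP7 and VIPR1 were well above background on 0 arrays of the lower IMR-32 culture, so the sizes of their contrasts are not exact. For SP5 it was 9.64 (standard error 0.48, adjusted p = 3.56e-12), with a CHP-212 difference of -0.75 that rests on 2 of 4 arrays of each culture well above background, as does that of HOXC9. RELN had a measured contrast of 10.21 (adjusted p = 4.91e-13) and was called lower in CHP-212 (-1.45). HOXC9 was 4.56 apart (adjusted p = 9.96e-09), with a CHP-212 difference of 1.11 in the same direction (adjusted p = 0.143), and RET 3.98 apart (adjusted p = 1.34e-06), with -1.01 in CHP-212 (adjusted p = 0.0693). TH was 3.11 apart (adjusted p = 2.06e-06). REC8 had a contrast of -6.44 (adjusted p = 2.16e-09), with -0.64 in CHP-212. IGFBP7 had a measured contrast of -11.18 (adjusted p = 1.02e-15) and rose by 4.85 in CHP-212. VIPR1 followed the same pattern with 2.38 in CHP-212 and a measured contrast of -5.35 (adjusted p = 0.0014), and so did SNAI1 with 1.63 and -2.98 (adjusted p = 6.41e-07). Among genes called higher in both lines, DBH differed by 2.07 in CHP-212 and the contrast was 1.79 (adjusted p = 0.00758), and GREM1 by 2.79 with a measured contrast of 3.74 (adjusted p = 3.54e-06). CXCL14 differed by 1.53 with a measured contrast of 7.28 (adjusted p = 1.06e-09). PDGFRA rose more in CHP-212, by 3.44, with a contrast of -1.71 (adjusted p = 0.00182). RUNX1 rose in both lines with a contrast of -0.65 (adjusted p = 0.374) that did not pass. GABRA5 was lower in both, with a measured contrast of -2.51 (adjusted p = 0.000272) whose size is not exact, since 0 FOXP1 arrays of CHP-212 were well above background.

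**Figure D4:**
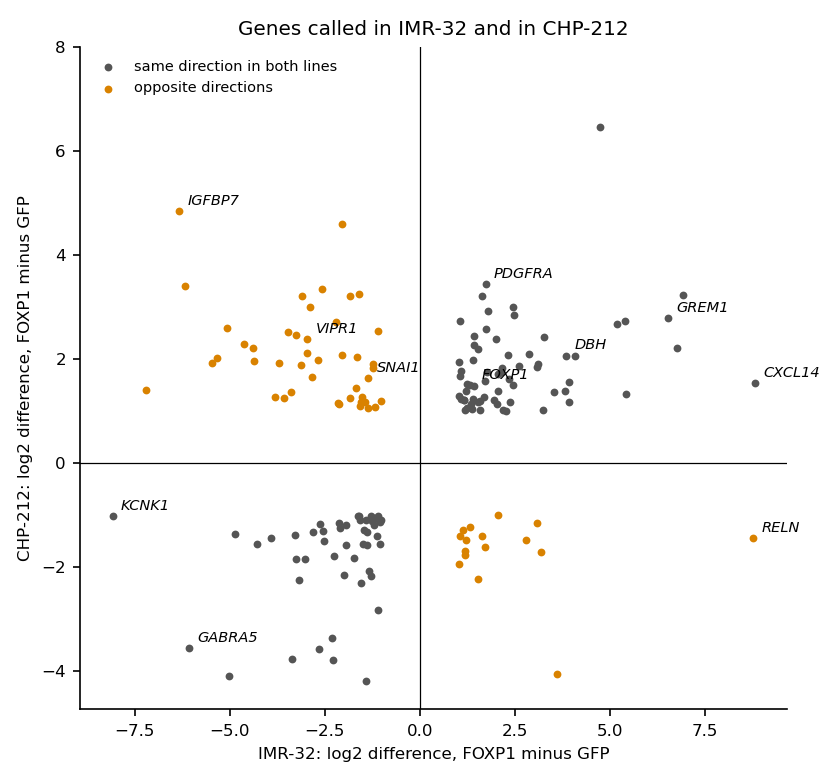
Log2 difference between FOXP1 and GFP cultures in IMR-32 (horizontal axis) and in CHP-212 (vertical axis) for the 174 probes with a symbol that were called in both lines, 4 arrays against 4 in each line. Dark points moved the same way in both lines and orange points opposite ways, as IGFBP7 and RELN do.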

How the data were processed

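Gene expression was measured on one-colour arrays of 8 IMR-32 samples, with the 8 CHP-212 samples used for the contrast and all 24 for the correlations. The deposited processed signal intensities come from the authors' scanner software, which, per the file headers, removed the local background of each spot and corrected trends within the array. They were not normalised between arrays. A further deposited table of intensities is not described in words. Once sorted, its columns agree within 0.0879% and have the rank order of the processed signal (Spearman's rho 1), with a median of 144 in each column, so it was read as quantile-normalised intensities on a linear scale, not centred.

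Control spots were dropped, and so were spots flagged as outliers (52 on the IMR-32 arrays, 311 in all). FOXP1 and GFP arrays were compared by the moderated test of limma 3.58.1 (R 4.3.3, lmFit with eBayes), unpaired as in the paper's methods, on log2 processed signal minus the 75th percentile of the array. The contrast of lines used probes flagged on 4 or more of the 8 arrays of either line. Both arrays of a time point lie on the same slide and were paired by the labelled time. The correlation of their deviations from the culture means was 0.426, 0.601, 0.375 and 0.438 at 0, 12, 24 and 72 h over 33806 probes, so the time point as a replicate block was among the alternatives. The model was first checked on simulated data. Python 3.11.15 with numpy 2.4.6, pandas 2.3.3 and matplotlib 3.10.9 made the tables and figures.

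Symbols came from the study's supplementary lists of regulated genes, of which 1997 of 2370 IMR-32 entries, 1489 of 1489 CHP-212 entries and 642 of 855 SK-N-BE(2) entries could be read. They name 3494 probes, of which 3349 matched a gene of GRCh38.p14 by accession, symbol or older symbol. The lists' values were not used. Genes chosen for single results are FOXP1, the 6 marker genes, in each of the 22 gene lists and 6 marker lists the 2 highest and 2 lowest called members, the 10 highest and 10 lowest called probes with a symbol, and all members of lists with at most 12 tested, 133 genes in all, of which 2 are not reported here. List examples and lead probes had 4 arrays of the higher culture well above background and no overlap. AXIN2, LGR5, NKD2, DKK1, MAP2, NEFL and NPY are named besides these, with their difference only, and are not among the 133. Y-linked genes and XIST were left out. The members and lists were chosen with earlier results of these data known.

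Alternatives were normexp correction (offset 50), run on the median spot intensity because the files hold no mean, quantile normalization, the authors' quantile-normalised values, a stricter filter on dim probes and none, blocks for the time point or for the slide, each slide alone, 12, 24 and 72 h alone, leaving out each array in turn, all 24 arrays in 1 fit, and the t test without pairing that the paper's methods name. The FOXP1 difference within SK-N-BE(2) was used for the FOXP1 probe only, and probes without a symbol were counted but not described.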

Additional observations from a re-analysis of the deposited data

Results flagged for a closer look

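For single arrays, the 4 levels of a gene in a culture were examined where all 4 were well above background, along with the 75th percentile and the share of probes above background, 195 groups in all. An array stood apart where its gap to the nearest other array, relative to the range of the 4, exceeded the critical value of Dixon's test. Chance flags about 1 in 20 such groups, and 10 stood apart. On the GFP arrays of 0 h these were RGS16 at a log2 level of -1.55, RGS4 at -1.26, ECHDC3 at -0.54 and PPP1R14A at -0.36, each below the other 3 GFP arrays, and PCDHB16 at -5.55, above them. On other GFP arrays, SLC38A5 was lower at 24 h (0.40) and ENG higher at 72 h (-3.98). Among FOXP1 arrays, DLGAP1 was higher at 72 h (-2.79), AIFM2 at 24 h (-4.05) and ESAM at 12 h (-3.38).

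The FOXP1 difference was tested between IMR-32 and CHP-212, and 5308 probes passed. Of 22 genes examined, FOXP1 with the 6 marker genes and the chosen genes called in both lines, 18 passed. The measured contrast, IMR-32 minus CHP-212, was 9.64 for SP5, 10.21 for RELN, 7.28 for CXCL14, 4.56 for HOXC9, 4.11 for PCDHB16, 3.98 for RET, 3.74 for GREM1, 3.11 for TH, 2.50 for GRIA3, 2.44 for CYR61 and 1.79 for DBH. It was -11.18 for IGFBP7, -7.07 for KCNK1, -6.44 for REC8, -5.35 for VIPR1, -2.98 for SNAI1, -2.51 for GABRA5 and -1.71 for PDGFRA. The sizes for RELN, CXCL14, GREM1, IGFBP7, KCNK1, VIPR1 and GABRA5 are not exact, as a culture in the comparison had 0 arrays well above background. The cause of these differences was not tested.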

How the results depend on the processing

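The count of 4122 probes called in IMR-32 moved by more than 1.5 times under 1 alternative, normexp correction (1426). Quantile normalization (4065), the authors' values (4064), the time point as a replicate block (4377) and the slide as a block (4292) left it nearly as it was, and leaving out each array in turn gave 3937 to 4246. The count of 5308 probes in the contrast of lines was 2269 after normexp correction, 9028 with the time point as a replicate block and 3273 from 12, 24 and 72 h alone, and 4678 to 6062 with each array left out. The cause was not tested. Of 119 called genes among those chosen, 0 reversed direction under any alternative run on single genes, 44 lost their call after normexp correction and 0 with either block. The median size of their differences went from 4.87 to 2.10 after normexp correction, and 68 of 69 with a lower bound fell short of it. The offset added by that correction makes differences of dim probes smaller. Signal over background limits these results: 479 called probes were well above background on 0 arrays of the lower culture, so that their fold changes are lower bounds within the main processing, and 61 of the 133 chosen genes were measured on all 8 arrays.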
